A study of Homo sapiens with 12 samples.

Results

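The serine mt-tRNAs are the products of MT-TS1, which reads the UCN codons, and MT-TS2, which reads the AGY codons. They are 2 of the 22 mt-tRNAs tabulated in each MPAT-Seq library, and they were chosen by measured values, namely adenine in place of cytosine at the CCA positions together with the stops and tails at their 3′ ends. Those shares are given below as a description without a test. Both mt-tRNAs had a table in all 6 libraries, and neither was removed by a filter.

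A mitochondrial tRNA is cut out of a long polycistronic transcript. Its encoded sequence ends at the discriminator base, the last base before the CCA that a nucleotidyltransferase adds without a template. The finished CCA end is what an aminoacyl-tRNA synthetase charges with an amino acid. The mitochondrial poly(A) polymerase mtPAP adds adenines to RNA 3′ ends in the same compartment, and PDE12 is a mitochondrial 3′ to 5′ exonuclease that removes adenines. MT-TS2 is known for an unusual fold, since it lacks the D arm of the cloverleaf.

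MPAT-Seq (mitochondrial poly(A) tail sequencing) ligates a linker to RNA 3′ ends, amplifies each mt-tRNA with its own forward primer and sequences the products. All cells were HEK293T Flp-In T-REx, a line derived from human embryonic kidney. The libraries came from PDE12+/+ cells, from PDE12−/− cells, from PDE12−/− cells with wild-type PDE12 (WT) or with the E351A mutant, in which a putative metal-binding residue is changed, and from both genotypes with mtPAP. WT, E351A and mtPAP came from transgenes induced with doxycycline. The PDE12−/− cells had been made with zinc finger nucleases and cloned from single cells, so clone and genotype cannot be told apart. For the pair of mtPAP libraries the sample labels and the names of the deposited tables give opposite genotypes. The heading inside each table has the genotype of its name, which is used here, and every comparison of these libraries turns its sign with the labels.

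There was 1 library per condition, so no replicate error exists and no p-value is given for MPAT-Seq. Brackets hold 95% Wilson intervals of a share of reads, or Newcombe intervals of a difference. They cover the counting error of reads alone. PCR copies could not be told from separate molecules, so the intervals may be too narrow for molecules. Intervals called apart below are apart in this sense only. The 22 mt-tRNAs summed to between 300014 and 782111 reads at the discriminator position. MT-TS2 had 12601 of these reads in PDE12+/+, 5754 in PDE12−/−, 26515 with WT and 7909 with E351A. With mtPAP it had 2799 in PDE12+/+ and 256 in PDE12−/−. MT-TS1 had 254, 41, 520, 5949, 84 and 62 reads in the same order, and was the lowest or second lowest of the 22 in every library. Each mt-tRNA was amplified separately before pooling, so its read number is depth and not an RNA level. The study cautions that its assay needs reverse transcription through modified bases and might over-represent the ends of unmodified molecules. All shares below are therefore of reads, and may differ from shares of molecules.

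MT-TS1 is encoded by the − strand of mitochondrial DNA, at chrM:7446-7514 in GRCh38 (69 nt), and its 3′ flank runs antisense into the end of MT-CO1, the gene of cytochrome c oxidase subunit I at chrM:5904-7445 on the + strand. MT-TS2 lies on the + strand at chrM:12207-12265 (59 nt) and abuts MT-TH upstream and MT-TL2 downstream, with no base between the genes. The genes and their ends are shown because each result below is a base read at one of these last positions. The capital marks the discriminator base. The lines with CCA carry the finished end, and the lines with the flank carry what the genome encodes in its place.
MT-TS1 gene: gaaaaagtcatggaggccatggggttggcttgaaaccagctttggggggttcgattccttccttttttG
MT-TS1 end with CCA: cttccttttttGcca
MT-TS1 end with flank: cttccttttttGtctagattttat
MT-TS2 gene: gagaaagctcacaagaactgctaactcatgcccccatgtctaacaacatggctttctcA
MT-TS2 end with CCA: atggctttctcAcca
MT-TS2 end with flank: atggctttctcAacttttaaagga
Positions after the discriminator base are numbered +1 to +3 for CCA and from +4 for a tail. An adenine at +1 or +2 replaces a C of CCA. In MT-TS1 the discriminator base is G, so an adenine can also be seen there, whereas in MT-TS2 it is A and an adenine added at that place is not visible.

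In MT-TS2 the share of reads with adenine at +1 spanned nearly the whole scale over the 6 libraries. It was 8.07% (7.39 to 8.81) of 5688 reads in PDE12−/−. With E351A it was 27.0% (26.0 to 28.0) of 7840 reads, and in PDE12+/+ it was 29.3% (28.5 to 30.1) of 12252 reads. These 3 libraries held the lower shares. In PDE12+/+ with mtPAP it was 46.5% (44.6 to 48.4) of 2702 reads. In PDE12−/− with mtPAP it was 76.1% (70.5 to 81.0) of 251 reads, and with WT it was 93.3% (93.0 to 93.6) of 25391 reads. No neighbours in this order had overlapping intervals. The bases at +1 were almost all A or C, with 1605 reads with C against 23692 with A in the WT library.

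**Figure D1:**
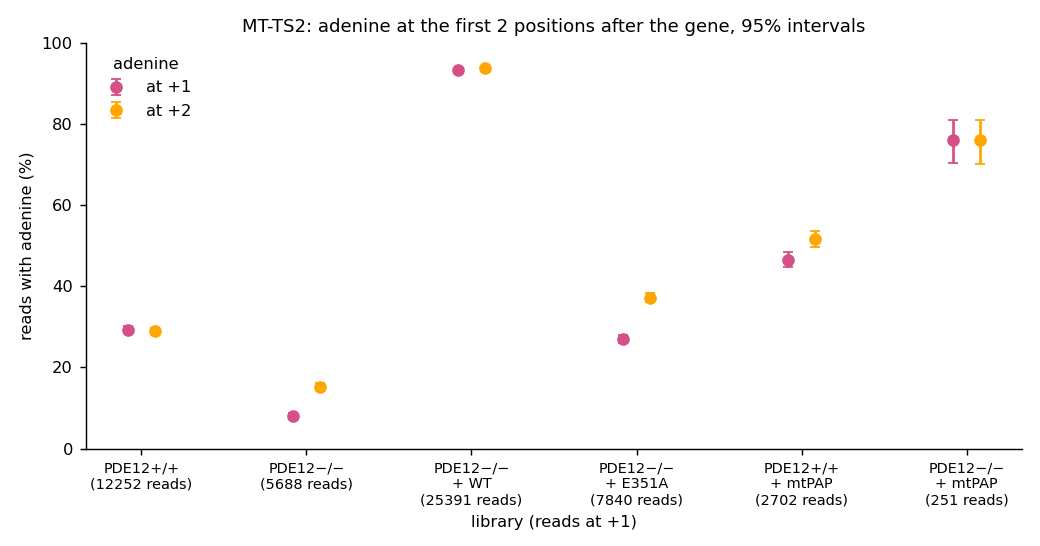
Share of MT-TS2 reads with adenine at +1 and at +2, in percent, by library, with the reads at +1 in brackets under each name; points are shares of 1 library and bars 95% Wilson intervals. The lowest pair of points belongs to PDE12−/− (8.07% and 15.3%) and the highest to PDE12−/− with WT (93.3% and 93.8%).

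The difference at +1 between PDE12−/− and PDE12+/+ was −21.2 percentage points (−22.3 to −20.1). The same reading, a lower share with intervals apart, held for 63.6% of the 22 mt-tRNAs, and nothing is drawn from it, since this contrast chose MT-TS2. WT minus PDE12−/− was 85.2 points (84.4 to 86.0), where 50% of the mt-tRNAs were higher. E351A minus PDE12−/− was 18.9 points (17.7 to 20.1), where 54.5% were higher. With mtPAP the PDE12−/− library minus the PDE12+/+ library was 29.6 points (23.7 to 34.8), where 31.8% were higher, and it was −29.6 with the genotypes of the labels.

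At +2 the shares of adenine were 28.9% (28.1 to 29.8) in PDE12+/+, 15.3% (14.3 to 16.2) in PDE12−/−, 93.8% (93.5 to 94.1) with WT and 37.2% (36.1 to 38.2) with E351A. They were 51.7% (49.8 to 53.6) and 75.9% (70.1 to 80.9) in PDE12+/+ and PDE12−/− with mtPAP. In PDE12−/−, with E351A and in PDE12+/+ with mtPAP more reads had adenine at +2 than at +1, although fewer reads reached +2. Reads with adenine at +2 that cannot be accounted for by reads without C at +1 must carry C and then A. There were at least 399 of these among 5634 reads in PDE12−/− (7.08%). At least 777 of 7794 (9.97%) were found with E351A and at least 108 of 2641 (4.09%) in PDE12+/+ with mtPAP. In the other 3 libraries the counts set no such minimum. Whether the A of such reads starts a tail after the first C was not tested. C also stood at the discriminator position in 73 reads in PDE12−/− and in 33 with E351A, but in 0 in PDE12+/+ with mtPAP.

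Reads with C at +2 set the upper limit on MT-TS2 reads with both cytosines. They made up 71.0% of the reads at +2 in PDE12+/+, 84.6% in PDE12−/−, 6.04% with WT and 62.8% with E351A. With mtPAP the shares were 48.3% for PDE12+/+ and 24.1% for PDE12−/−. In the WT library 2883 reads ended at +3, the place of a finished CCA, but only 1458 reads had C at +2. At least 1425 of the reads that ended there, 49.4%, therefore lacked the second C.

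Reads of MT-TS2 that reached +3 went on past it in 56.1% (55.2 to 57.0) of cases in PDE12+/+ and in 82.7% (81.7 to 83.7) in PDE12−/−, a difference of 26.6 points (25.3 to 28.0). A higher share in PDE12−/− was seen in 72.7% of the 22 mt-tRNAs. With E351A it was 92.5% (91.9 to 93.1). With WT it was 87.2% (86.8 to 87.6), 4.49 points (3.43 to 5.60) above PDE12−/−, and MT-TS2 was the 1 mt-tRNA, 4.55% of the 22, in which the WT library lay above PDE12−/− with intervals apart. With mtPAP it was 57.5% (55.5 to 59.4) in PDE12+/+ and 94.3% (90.1 to 96.8) in PDE12−/−.

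Where these tails ended differed between the libraries with similar shares. Of the MT-TS2 reads past +3, 54.6% (53.9 to 55.3) ended between +4 and +6 with WT, and 7.09% (6.38 to 7.86) did so in PDE12−/−. The share was 33.1% (31.9 to 34.3) in PDE12+/+ and 10.4% (9.74 to 11.2) with E351A. It was 20.5% (18.4 to 22.6) in PDE12+/+ with mtPAP and 12.0% (8.07 to 17.5) in PDE12−/− with mtPAP. In PDE12−/− just 7 of the 4615 reads past +3 ended at +4, whereas in the WT library 3172 of 19668 did. The median read of MT-TS2 ended at +3 in PDE12+/+, at +8 in PDE12−/−, at +5 with WT and at +9 with E351A, and at +4 and +8 in PDE12+/+ and PDE12−/− with mtPAP.

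**Figure D2:**
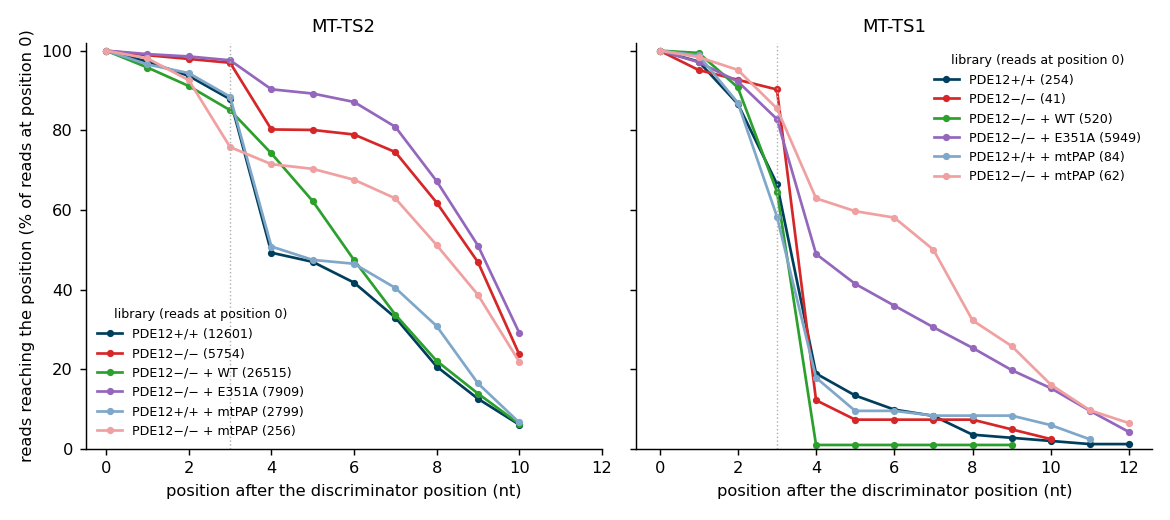
Reads that reach each position after the discriminator position (position 0), in percent of the reads at position 0, for MT-TS2 and MT-TS1; each line is 1 library and the dotted line marks +3. For MT-TS2 the PDE12−/− and E351A lines stay above 70% to +7 while the WT line falls steadily from +3 on, and for MT-TS1 the WT line drops from 64.6% at +3 to 0.962% at +4.

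The tables of MT-TS2 ended at +10 in all 6 libraries, with 1365 reads (23.7%) still present there in PDE12−/− and 2304 (29.1%) with E351A. Uncalled positions were put after each gene in the reference. Bowtie2 by default accepts up to 0.15 uncalled positions per base of a read, which for a read of the whole gene allows 10 positions in MT-TS2 and 12 in MT-TS1. The authors removed the primers, which begin at the first base of both serine genes, so a trimmed read is shorter than the gene and its limit is lower. Of the 132 tables, 121 ended at or before the whole-gene limit, a count that includes tables ending well before it. Whether this limit set the last positions was not tested. The setting of the authors is not given in the sources used here, and longer tails than the last position cannot be told apart from tails that end there.

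Loss of MT-TS2 reads before +3 also differed between the libraries. A read that ended at +1 or +2 may hold A there in place of C. In the WT library 1232 reads ended at +1 and 1608 at +2, while 1605 of all reads at +1 had C there. The share of reads at the discriminator position that did not reach +3 was 12.2% (11.6 to 12.8) in PDE12+/+ and 3.04% (2.63 to 3.52) in PDE12−/−. A lower share in PDE12−/− was seen in 72.7% of the mt-tRNAs. With WT it was 15.0% (14.5 to 15.4), 11.9 points (11.3 to 12.5) above PDE12−/−, a direction shared by 90.9% of the mt-tRNAs. It was 2.41% (2.10 to 2.78) with E351A. With mtPAP it was 11.6% (10.4 to 12.8) in PDE12+/+ and 24.2% (19.4 to 29.8) in PDE12−/−, the highest of the 6 libraries.

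The discriminator position of MT-TS1, encoded as G, was read as A in a share of reads that differed widely between libraries. Adenine was found there in 9 of 520 reads with WT, 1.73% (0.913 to 3.26), and in 6 of 41 reads in PDE12−/−, 14.6% (6.88 to 28.4). In PDE12+/+ with mtPAP it was 23 of 84 reads, 27.4% (19.0 to 37.7). In PDE12+/+ it was 121 of 254 reads, 47.6% (41.6 to 53.8), and with E351A it was 3549 of 5949 reads, 59.7% (58.4 to 60.9). In PDE12−/− with mtPAP it was 52 of 62 reads, 83.9% (72.8 to 91.0). In this order PDE12−/− and PDE12+/+ with mtPAP had overlapping intervals, and the other neighbours did not.

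**Figure D3:**
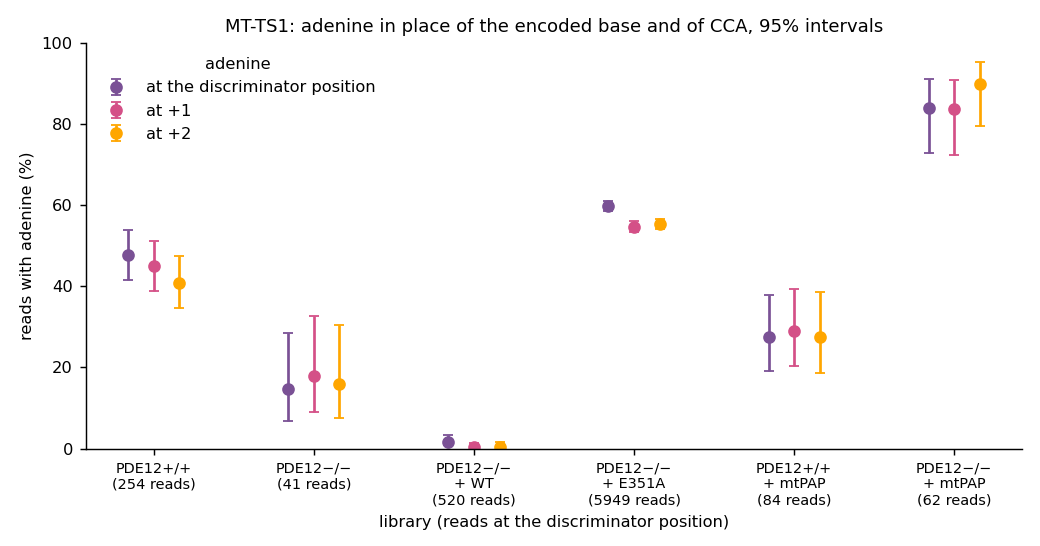
Share of MT-TS1 reads with adenine at the discriminator position, at +1 and at +2, in percent, by library, with the reads at the discriminator position in brackets; points are shares of 1 library and bars 95% Wilson intervals. The 3 shares of a library lie close together, from 1.73% at most with WT to 83.6% or more in PDE12−/− with mtPAP, and the bars are widest where reads are fewest.

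E351A minus PDE12+/+ was 12.0 points at the discriminator position (5.76 to 18.2), and PDE12−/− minus PDE12+/+ was −33.0 points (−42.9 to −17.9). This last direction was not particular to MT-TS1, as given below for the other mt-tRNAs with such a base. WT minus E351A was −57.9 points (−59.4 to −56.0). At +1 the share of adenine was 44.9% in PDE12+/+, 17.9% in PDE12−/−, 0.387% with WT, 54.7% with E351A, and 28.9% and 83.6% in PDE12+/+ and PDE12−/− with mtPAP. The order of the libraries at +1 was that at the discriminator position. With E351A at least 218 reads, 3.66% of those at the discriminator position, had A there and another base at +1.

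Both serine mt-tRNAs were at opposite ends in the WT library. At +1 MT-TS2 had adenine in 93.3% of reads and MT-TS1 in 2 of 517, 0.387% (0.106 to 1.40), below the 0.580% that 3 reads would be. In the other 5 libraries MT-TS1 and MT-TS2 were closer. MT-TS1 was the higher, with intervals apart, in PDE12+/+, in PDE12−/− and with E351A, and MT-TS2 was the higher in PDE12+/+ with mtPAP. In PDE12−/− with mtPAP the intervals of the pair overlapped.

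Part of the MT-TS1 reads ran on into the encoded flank. Of its first 12 bases, those at +1, +3, +5, +7 to +10 and +12 are neither A nor the base of CCA at that place, so reads of the flank can be told from CCA and from adenines there. With E351A, T stood at +1 in 425 of 5776 reads, 7.36% (6.71 to 8.06), and at +3 in 379 of 4926 reads, 7.69% (6.98 to 8.47). The encoded G stood at +5 in 274 of 2464 reads, 11.1% (9.94 to 12.4), and T at +7 in 218 of 1816 reads, 12.0% (10.6 to 13.6). At +8 the encoded T was left in 100 of 1508 reads, 6.63% (5.48 to 8.00), and at +10 in 8 of 906, 0.883% (0.448 to 1.73). Reads of the flank were thus mostly gone by +9, while reads with A continued to +12.

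**Figure D4:**
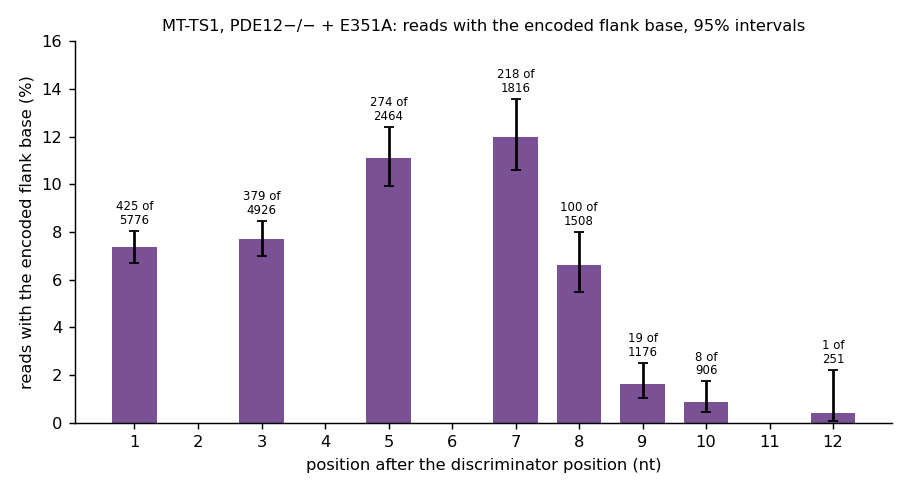
MT-TS1 reads with the base encoded by the genomic flank, in percent of the reads at that position, in the PDE12−/− library with E351A; only positions where that base is neither A nor the base of CCA are drawn, bars are shares, whiskers 95% Wilson intervals and the numbers reads. The share is between 7.36% and 12.0% up to +7 and 0.883% at +10.

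Flank bases were also read in PDE12+/+ and with WT, from few reads. In PDE12+/+, T stood at +1 in 7 of 247 reads, 2.83% (1.38 to 5.73). The encoded G stood at +5 in 7 of 34 reads, 20.6% (10.3 to 36.8), an interval that overlaps that with E351A, and T at +7 in 2 of 21 reads, 9.52% (2.65 to 28.9). With WT, T stood at +1 in 7 of 517 reads, 1.35% (0.657 to 2.77), and at +3 in 5 of 336. In PDE12−/− it was found at +1 in 0 of 39 reads, and in PDE12+/+ and PDE12−/− with mtPAP in 0 of 83 and 0 of 61. The Wilson intervals of these shares reach 8.97%, 4.42% and 5.92%, and 3 reads would be 7.69%, 3.61% and 4.92%. The flank begins with G or T in 9 of the mt-tRNAs, and MT-TS1 ranked 3 among them by the share of that base at +1 with E351A. The highest was MT-TN, the asparagine mt-tRNA, at 24.6%, named after its values were seen, followed by MT-TI, the isoleucine mt-tRNA, at 9.68%. In MT-TS2 the flank base, where it can be told apart (T from +3 to +6, G at +10), never exceeded 1.58% of the reads at a position.

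Tails of MT-TS1 past +3 were common with E351A. Of the reads that reached +3, 59.1% (57.7 to 60.5) went on with E351A and 28.4% (22.1 to 35.6) in PDE12+/+, a difference of 30.7 points (23.3 to 37.1) in a direction that 95.5% of the mt-tRNAs had. It was 13.5% (5.91 to 28.0) of 37 reads in PDE12−/−, where the difference from PDE12+/+ had an interval that spans 0 (−25.4 to 0.872 points). It was 30.6% (19.5 to 44.5) and 73.6% (60.4 to 83.6) in PDE12+/+ and PDE12−/− with mtPAP. With WT it was 5 of 336 reads, 1.49% (0.637 to 3.44). In that library 5 reads had T at +3, and the 5 reads past +3 had C at +5, where the flank encodes G.

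Reads of MT-TS1 often ended before +3. The share lost before +3 was 33.5% (27.9 to 39.5) in PDE12+/+, 35.4% (31.4 to 39.6) with WT, 17.2% (16.3 to 18.2) with E351A and 41.7% (31.7 to 52.3) in PDE12+/+ with mtPAP. It was 4 of 41 reads in PDE12−/−, 9.76% (3.86 to 22.5), and 9 of 62 in PDE12−/− with mtPAP, 14.5% (7.83 to 25.3). WT minus PDE12−/− was 25.6 points (12.2 to 32.9), a direction shared by 90.9% of the 22 mt-tRNAs. For the share lost before +3 MT-TS1 ranked 1 of the 22 in PDE12+/+, with E351A and in PDE12+/+ with mtPAP. With WT it ranked 13, below the median of the other 20, which was 38.9%. It ranked 4 in PDE12−/− and 7 in PDE12−/− with mtPAP. Of the 184 lost reads with WT, 45 ended at +1 and 136 at +2. Ends at the discriminator position alone gave the opposite sign, with 3 of 520 reads against 2 of 41.

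Among the 22 mt-tRNAs the serine pair stood near the top for adenine at +1 in most libraries. The pair was chosen by this measure, so its ranks are a description and nothing is drawn from them. MT-TS1 was first in PDE12+/+, where its interval overlapped that of MT-TI, and with E351A, and MT-TS2 was first with WT and in PDE12+/+ with mtPAP. In the WT library MT-TS1 came 21st, from 2 reads. The upper end of its interval, 1.40%, was near the median of the other 20 there, 1.74%, so this rank is not resolved. The median of the other 20 mt-tRNAs was between 1.11% and 3.00% over the 6 libraries, while MT-TS2 was between 8.07% and 93.3%. Apart from MT-TS1, the mt-tRNAs above MT-TS2 in any library were MT-TI and MT-TQ, the glutamine mt-tRNA. With intervals apart, MT-TI was above it in PDE12−/− (32.4% of 225 reads), with E351A (44.5%) and in PDE12−/− with mtPAP (95.7% of 184 reads), and MT-TQ with E351A (32.7%). The intervals overlapped for MT-TI in PDE12+/+ (32.4% of 213 reads) and for MT-TQ in PDE12−/− with mtPAP (89.4% of 66 reads).

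**Figure D5:**
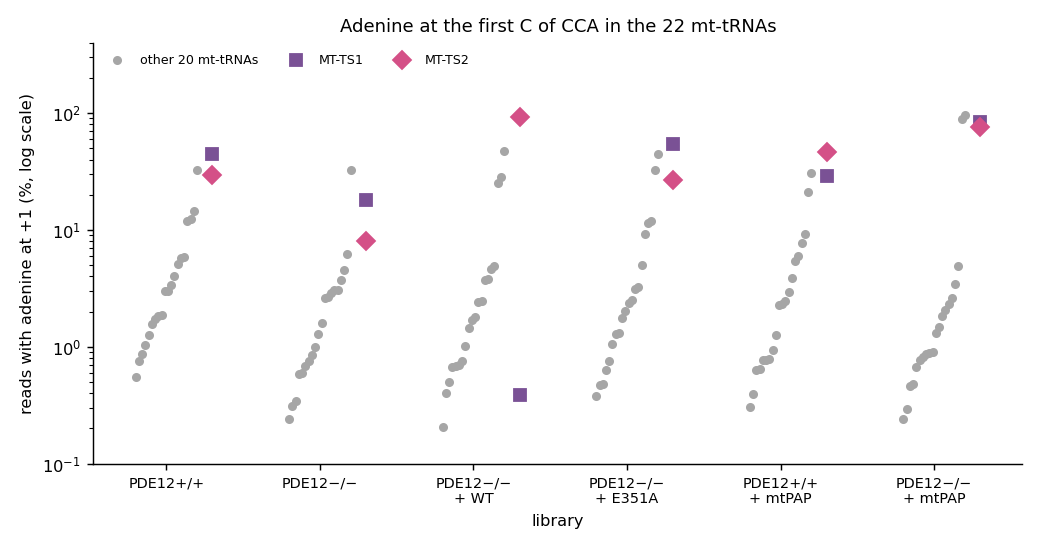
Share of reads with adenine at +1 in each of the 22 mt-tRNAs, in percent on a log scale, by library; grey points are the other 20 mt-tRNAs in rising order, squares MT-TS1 and diamonds MT-TS2. The diamond moves from 8.07% in PDE12−/− to 93.3% with WT, and the square is near the bottom, at 0.387% from 2 reads, with WT alone.

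The profile of adenine at +1 over the 6 libraries most like that of MT-TS1 was that of MT-TI, with a mean absolute difference of 12.7 points, followed by MT-TQ with 16.8 and MT-TS2 with 28.5. For MT-TS2 the nearest were MT-TI with 24.7 points, MT-TS1 with 28.5 and MT-TQ with 29.4, so no profile was close. MT-TH and MT-TL2, whose genes abut MT-TS2, had adenine at +1 in 3.85% and 11.5% of reads at most. Past +3, MT-TH, the histidine mt-tRNA, went on in 3.11% (2.90 to 3.33) of reads in PDE12+/+ and 89.9% (89.6 to 90.2) in PDE12−/−. In the same libraries MT-TL2, the CUN leucine mt-tRNA, stood at 10.3% (8.95 to 11.9) and 10.4% (9.40 to 11.5). MT-TS2 lies between them in the genome, and the intervals of its shares, 56.1% and 82.7%, were apart from those of both.

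A discriminator base other than A is encoded in 6 of the 22 mt-tRNAs, so that an added A can be seen there. MT-TS1 had the largest share of A at that position in 4 of the 6 libraries. MT-TC, the cysteine mt-tRNA, had 27.9% with WT, where MT-TS1 ranked 3, and MT-TQ had 86.8% in PDE12−/− with mtPAP, where MT-TS1 ranked 2. MT-TC is named after its values were seen. In PDE12+/+ the highest of the other 5 was MT-TQ at 13.2%, against 47.6% in MT-TS1. In PDE12−/− MT-TQ was lower, at 2.53%. The shares in PDE12+/+ and PDE12−/− were 1.89% and 0.332% in MT-TC, 4.67% and 0.943% in MT-TH, and 11.7% and 1.93% in MT-TN. MT-TW, the tryptophan mt-tRNA, went the other way, with 1.33% and 3.26%.

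RNA-seq of mitochondrial RNA, with 3 numbered samples per genotype, gives the single replicated measure of these mt-tRNAs. Counts were few. MT-TS1 had 1, 3 and 2 forward counts in PDE12+/+ and 2, 4 and 4 in PDE12−/−, and 0, 3 and 2 against 5, 1 and 1 reverse counts. MT-TS2 had 1, 0 and 3 against 5, 2 and 2 forward counts and 14, 28 and 28 against 24, 13 and 27 reverse counts. The raw counts of the groups overlapped in all 4 rows. The sources used here do not say which column is the sense strand of a gene, so a row may not measure the mt-tRNA itself. Scaled by TMM, MT-TS2 reverse was 353, 344 and 357 CPM in PDE12+/+ and 260, 186 and 272 CPM in PDE12−/−, so that the groups were apart, whereas they overlapped when scaled by library totals. This row had a log2 fold change of −0.54 with a standard error of 0.45 and an adjusted p = 0.762 in edgeR's quasi-likelihood test over 68 rows of genes by strand. The other 3 rows had log2 fold changes of 0.35, 0.11 and 0.73, with adjusted p between 0.917 and 0.978. No row of any gene was called (0%) in this fit, which had no replicate block, with 5 at an unadjusted p under 0.05 and 0 calls by DESeq2. With the replicate number as a block 4 rows were called, none of a serine mt-tRNA. These counts say nothing of the 3′ ends.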

How the data were processed

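MPAT-Seq was done on 1 library per condition and RNA-seq on 3 samples per genotype. For MPAT-Seq the authors trimmed primers, kept reads over 20 nt, aligned these by Bowtie2 against GRCh38 mt-tRNAs followed by 30 uncalled positions, and deposited, per mt-tRNA and position, whole numbers of reads and of A, C, G and T. For RNA-seq the authors deposited raw counts per mitochondrial gene and strand column. Tool versions are not given in the sources used here.

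From the deposited counts, shares of reads were computed with 95% Wilson intervals and Newcombe intervals of differences (Python 3.11.15). The smallest share a depth can show was set at 3 reads. A table printed as MT-TT but numbered as MT-TD, and tables of MT-TY starting 1 base early, were read at their true positions, and in PDE12−/− the bases of MT-TQ do not sum to its reads. The RNA-seq fit used edgeR 4.0.16 under R 4.3.3 (TMM, common dispersion, quasi-likelihood test, Benjamini-Hochberg over all rows, threshold 0.05). DESeq2 1.42.0, library totals, a minimum of 10 counts and leaving out each sample served as alternatives. Replicate numbers come from the labels, and the main fit had no block for them. Same-numbered samples deviated together over 37 rows (correlations from 0.25 to 0.61). Differently numbered samples were not compared, so whether the numbers pair the samples was not tested. Where nothing shows separate cultures, p-values measure the spread between these samples alone. Both analyses were tested on simulated data. The simulated MPAT-Seq reads were independent, so that test says nothing of PCR copies. The simulated RNA-seq changes were placed only in rows with counts above those of the serine mt-tRNAs, so it says nothing of the power for these rows.

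Members and lists were chosen with earlier results of these data known. Other mt-tRNAs are named as neighbours of MT-TS2, as the 3 nearest profiles of adenine at +1 (at least 30 reads in at least 4 libraries), or as those above MT-TS2 where there are at most 3. Coordinates and sequences come from GENCODE release 44 and the hg38 mitochondrial genome (16569 nt).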

Additional observations from a re-analysis of the deposited data

Results flagged for a closer look

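The difference between the genotypes had opposite signs without and with mtPAP. For adenine at +1 of MT-TS2, PDE12−/− minus PDE12+/+ was −21.2 points without mtPAP and 29.6 points with it. For adenine at the discriminator position of MT-TS1 the same differences were −33.0 and 56.5 points. With 1 library per condition the change of sign was not tested. It rests on the genotypes in the names of the mtPAP tables. With the genotypes of the labels both differences would have the same sign. The change of sign was not particular to the serine pair. At the discriminator position MT-TQ had adenine in 13.2% of reads in PDE12+/+ and 2.53% in PDE12−/−, and with mtPAP in 0.631% and 86.8%. There MT-TC, MT-TH and MT-TN were lower in PDE12−/− both without and with mtPAP. MT-TW was higher without mtPAP, and its intervals overlapped with mtPAP. At +1 MT-TQ had 14.6% and 3.76%, and with mtPAP 0.631% and 89.4%. How many mt-tRNAs changed sign at +1 was not counted. The median share of reads past +3 over the other 20 mt-tRNAs was 17.2% in the library named PDE12+/+ with mtPAP and 88.5% in that named PDE12−/− with mtPAP. Without mtPAP it was 10.9% in PDE12+/+ and 34.5% in PDE12−/−. The study reported a great increase of extended mt-tRNAs when mtPAP was induced in PDE12−/−, and in PDE12+/+ a rise to about the level of PDE12−/−. By the names, and not by the labels, the higher median with mtPAP falls in PDE12−/−. The rise in PDE12+/+ to about the level of PDE12−/− is met by neither. PDE12+/+ with mtPAP had a median of 17.2% by the names and 88.5% by the labels, against 34.5% in PDE12−/−. The PDE12−/− library with mtPAP held 256 reads of MT-TS2 and 62 of MT-TS1 at the discriminator position, and the part of this depth in the result was not tested.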

How the results depend on the processing

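Of 26 alternative readings of the 9 MPAT-Seq differences, 16 stayed within the interval of the main value, 8 moved out of it with the same sign and 2 turned the sign. With adenine at +2 in place of +1 in MT-TS2, PDE12−/− minus PDE12+/+ was −13.7 points, WT minus PDE12−/− 78.5 and E351A minus PDE12−/− 21.9. Over the reads at the discriminator position, WT minus PDE12−/− was 81.4 points for adenine at +1, and PDE12−/− minus PDE12+/+ was 31.0 for reads past +3, or 29.1 with reads at +5 in place of +4. For WT minus PDE12−/−, loss of MT-TS2 reads was 3.09 points before +1 and 9.27 between +1 and +3. For MT-TS1 it was −4.30 points before +1, which rests on 2 and 3 reads. With the labels' genotypes the mtPAP difference in MT-TS2 was −29.6 points. The cause of the other changes was not tested. Exact Clopper-Pearson intervals left as many comparisons of adenine at +1 apart, 17 of 18. For the contrasts of adenine at +1 given above, 1 direction alone held for between 31.8% and 63.6% of the 22 mt-tRNAs. The share in either direction over all 22 was not computed, so nothing is drawn from the count for the serine pair. Taking out the MT-TS1 reads with T at +3, chosen after seeing the data, gave 29.9 points in place of 30.7 for E351A minus PDE12+/+ past +3, and assumes that all those reads went on past +3.

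RNA-seq calls numbered 0 in the main fit, 4 with the replicate block and 2 with library totals without TMM, which shifted the median log2 fold change by 0.27. Leaving out each sample gave from 0 to 0 calls. No row of a serine mt-tRNA was called in any fit, with the lowest adjusted p at 0.380 (edgeR, replicate block), although the sign of MT-TS1 reverse changed with the block and without PDE12+/+ replicate 1 or PDE12−/− replicate 1, and the log2 fold change of MT-TS2 forward ranged from 0.03 without PDE12+/+ replicate 2 to 2.00 without PDE12+/+ replicate 3. The filter of 10 counts left 1 of their 4 rows. The MT-TS1 shares rest on 41 to 84 reads in 3 libraries.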

Other observations

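Cytosine at the discriminator position was seen in both serine mt-tRNAs. In MT-TS1 it stood in 205 of 5949 reads with E351A (3.45%), 5 of 62 in PDE12−/− with mtPAP (8.06%) and 4 of 254 in PDE12+/+ (1.57%), and in 0 of the reads of the other 3 libraries. In MT-TS2 it stood in 73 of 5754 reads in PDE12−/− (1.27%), 59 of 12601 in PDE12+/+ (0.468%) and 33 of 7909 with E351A (0.417%), and in 5 of 26515 with WT (0.0189%). With mtPAP it stood in 5 of 256 reads in PDE12−/− (1.95%) and 0 of 2799 in PDE12+/+.

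A few tails held bases other than A at several positions. In MT-TS2 of the PDE12+/+ library with mtPAP, 39 reads had G and 21 had T at +5, 21 had G at +6, 21 had T at +7 and 20 had G at +8, of 1328, 1301, 1131 and 863 reads. In MT-TS1 with WT, the 5 reads past +3 all had C at +5 and all ended at +9. Whether such reads are copies of single molecules was not tested, since the reads carry no molecular identifiers.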
